A study of Mus musculus with 7 samples.

Results

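H3K18La, histone H3 carrying a lactyl group on lysine 18, was examined at 10 genes that mark Müller glia, the radial glia of the retina: Rlbp1, Glul, Slc1a3, Aqp4, Vim, Sox9, Hes1, Kcnj10, Apoe and Dkk3. Every peak that carried one of these gene symbols was taken, which gave 48 of the 108253 peaks quantified in the series. All 10 genes had at least 1 peak, and 9 had a promoter peak, Aqp4 being the exception. The libraries came from whole dissociated retinas of wild-type C57Bl/6J mice by CUT&Tag, an assay in which an antibody tethers an enzyme to the histone mark and the DNA released nearby is sequenced. There were 2 libraries at P4 (postnatal day 4), 2 at P10 and 3 at P28, 7 in all, without any treatment or mutant allele. The labels place P28 replicate 1 in batch 2 and the other 6 libraries in batch 1. Values are RPKM, reads scaled to the length of the peak and to a normalized library size, so that they may be compared between peaks of different length.

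Depth differed greatly between libraries. Between 199970 and 660740 reads fell in peaks in each of the 4 P4 and P10 libraries and between 1615969 and 8274373 in each P28 library, a 41.4-fold range. The share of the normalized library size that lay in peaks was 16.3% and 17.6% at P4 and between 36.1% and 57.1% at the later ages. Many member peaks therefore rest on a few reads at P4 and P10, and read numbers are given for many of them. Where every library of an age had 0 reads, the level that 3 reads over that age group would give is used as the floor. Counting error is all that this floor covers, since reads carried no molecular identifiers.

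Müller glia are among the last cells born in the retina. They span its whole thickness, take up glutamate, buffer potassium and water, take part in retinoid recycling, and share several transcription factors with the progenitors they arise from. Lactylation of histone tails uses lactate as its source and is known as a mark of active promoters and enhancers. The retina holds many more rods than Müller cells, and in bulk tissue fewer cells of a type and less mark per cell cannot be told apart.

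The promoter sequences of Glul and Kcnj10 are shown because these were the member promoters called by one or both of the tests described below. Each is the 250 bases that precede the RefSeq gene start on GRCm38.p6, written 5′ to 3′ on the gene's own strand. Both genes lie on the plus strand, Glul at chr1:153899679-153899928 and Kcnj10 at chr1:172340960-172341209, and both stretches lay wholly inside the gene's promoter peak. Capitals mark short motifs on either strand. The GC box was searched as GGGCGG. The CCAAT box was searched by the letters of its name. The TATA box was searched as TATAAA. No 2 matches overlapped in the sequences shown.
Glul: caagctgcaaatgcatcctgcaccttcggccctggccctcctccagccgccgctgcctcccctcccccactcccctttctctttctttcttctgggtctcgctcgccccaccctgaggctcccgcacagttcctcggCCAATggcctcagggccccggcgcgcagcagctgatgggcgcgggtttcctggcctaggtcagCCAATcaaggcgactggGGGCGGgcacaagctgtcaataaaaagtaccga
Kcnj10: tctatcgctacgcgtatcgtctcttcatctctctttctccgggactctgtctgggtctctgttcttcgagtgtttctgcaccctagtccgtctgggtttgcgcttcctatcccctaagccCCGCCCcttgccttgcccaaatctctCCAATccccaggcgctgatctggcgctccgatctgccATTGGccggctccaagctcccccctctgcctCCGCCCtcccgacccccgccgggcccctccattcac
Glul held 1 GC box and 2 CCAAT boxes, Kcnj10 held 2 of each, and neither held a TATA box. Among 32851 RefSeq stretches of the same length, 32.7% held a GC box, 33.8% a CCAAT box and 12.4% a TATA box. Their GC contents of 64.8% and 62.0% stood at the 82.3 and 76.7 percentiles of all stretches. RefSeq sequences of Rlbp1, Vim, Slc1a3 and Apoe were matched too and are not shown. No RefSeq stretch was available for Sox9, Hes1, Dkk3 and Aqp4.

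The mark was compared first at genes of glutamate clearance and recycling. Glul encodes glutamine synthetase, which turns glutamate into glutamine inside the glial cell. Its promoter peak (GRCm38 chr1:153899311-153902072) is 2762 bases long and covers the start site, exon and UTR sequence. Glul promoter H3K18La was 1.97 and 3.46 RPKM at P4, 2.61 and 8.85 at P10, and 12.6, 10.5 and 14.7 at P28. Each P28 library exceeded all 4 younger libraries, whereas P4 and P10 overlapped. These values rest on 12 and 16 reads at P4, 4 and 31 at P10, and 133, 472 and 235 at P28. Glul rose 4.64-fold from 2.72 ± 1.05 RPKM (SD, n = 2) at P4 to 12.6 ± 2.10 (SD, n = 3) at P28. Changes were tested by limma, a linear model fitted over all 108253 peaks and 7 libraries on log2 values after a pseudocount of 1 was added to the RPKM, so that changes of low peaks come out too small. A change was called below 0.01 after Benjamini-Hochberg adjustment over all peaks. On that scale the Glul change was 1.89 (SE 0.44, limma adjusted p = 0.00732).

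The Glul call depended on which libraries were used. It was lost without P4 replicate 1 (limma adjusted p = 0.093), without P4 replicate 2 (0.0431), and without P28 replicate 1, 2 or 3 (0.0323, 0.0239 and 0.0368), and kept without P10 replicate 1 or 2 (0.000433 and 0.00044). The log2 changes in the 5 fits that lost it were 1.60, 2.18, 1.88, 2.01 and 1.78, and those fits called 9.68% to 17.6% of all promoters higher, against 33.2% with all libraries and 54.6% and 54.8% without P10 replicate 1 or 2. The fit without P28 replicate 1 is also the fit within batch 1. Scaling did move the size, to 0.62 when scaled to reads in peaks (limma adjusted p = 0.2) and to 0.86 after quantile normalization (0.0849). The call was also lost with a pseudocount of 0.1 (2.21, 0.0229) and with the replicate number as a block (1.78, 0.0152). The peak also covers the start of Teddm2, a gene on the opposite strand, and CUT&Tag reads carry no strand, so the signal cannot be divided between the genes. A distal peak of Glul (chr1:153918732-153919127) had 1 and 0 reads at P4 and was not called at P28 (log2 change 1.66, limma adjusted p = 0.0161).

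Slc1a3 encodes GLAST, the main glutamate transporter of Müller glia. Its promoter peak (chr15:8710249-8710739) covers exon and UTR sequence and lies just inside the gene. Slc1a3 promoter H3K18La was 2.78 and 1.22 RPKM at P4, 3.68 and 4.82 at P10, and 2.67, 2.13 and 2.46 at P28. The P28 libraries lay between the P4 libraries, and both P10 libraries lay above all others. With 3, 1, 1 and 3 reads in the P4 and P10 libraries, the change from P4 to P28 was 0.24 (SE 0.40, limma adjusted p = 0.649) and did not pass. Its sign turned to -0.15 without P4 replicate 2 and to -0.86, -0.28 and -0.47 after scaling to reads in peaks, median centring and quantile normalization.

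Slc1a3 had 16 peaks, more than any other member. Among 14889 protein-coding genes with a peak the median number was 2, and 6.4% had 16 or more. Of the 16, 11 lay beyond the 3′ end of the gene (gene chr15:8634124-8710764, minus strand), and the nearest start of another coding gene to those peaks, that of Gm2310, was at least 66853 bases away. The strongest Slc1a3 peak, the one with the highest average of the 3 age means here and for the genes below (chr15:8629130-8629786, intergenic) had 3.46 and 3.63 RPKM at P4, 5.50 and 6.00 at P10, and 5.59, 8.51 and 9.99 at P28. Every P28 library was above both P4 libraries there, but the change of 0.96 was not called (SE 0.33, limma adjusted p = 0.04). The peak had 5 and 4 reads at P4 and 2 and 5 at P10. Its percentile among all peaks was between 78.6 and 90.2 in every library.

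One intergenic Slc1a3 peak fell between P4 and P10. At chr15:8632235-8632844 it had 7 and 3 reads at P4, none in either P10 library, and 4, 15 and 3 at P28. This was 5.21 and 2.93 RPKM at P4, so that P10 was at least 1.51-fold lower against the floor of 3 reads over the age (fitted log2 change -2.31, SE 0.47, limma adjusted p = 0.00531). At P28 the values of 1.72, 1.51 and 0.85 RPKM also lay below both P4 libraries, and that change of -1.09 did not pass (limma adjusted p = 0.0664). A second peak, at chr15:8786135-8787034 upstream of the gene, was called lower at P10 with 3 and 2 reads at P4 and 0 at P10 (limma adjusted p = 0.00431), where no fold can be given because the P4 mean of 1.42 RPKM was under the P10 floor of 1.83. Since P10 held no reads at these 2 peaks, they cannot have entered the peak set through that age, and that selection favours both falls. Neither peak was called lower by voom, a count-weighted form of limma, on the recovered reads (adjusted p = 0.0388 and 0.248). Without P4 replicate 1 the limma adjusted p of these peaks was 0.0234 and 0.0132, and without P4 replicate 2 it was 0.0151 and 0.0122. The first call was also lost without P28 replicate 1, 2 or 3 (0.0119, 0.0184 and 0.0153), and the second without P10 replicate 1 or 2 (0.0176 and 0.0181) or P28 replicate 2 (0.0113).

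**Figure D1:**
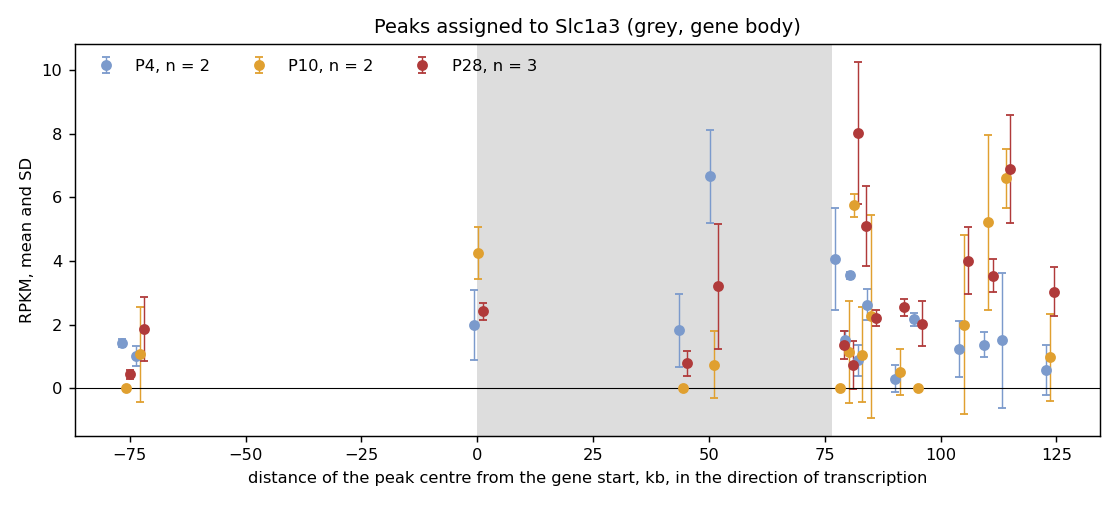
H3K18La at the 16 peaks assigned to Slc1a3, as mean RPKM and SD per age (vertical axis) by distance of the peak centre from the gene start in kb (horizontal axis, direction of transcription, grey for the gene body, ages shifted slightly sideways for legibility). The 11 peaks to the right of the gene body lie beyond the 3′ end, and the highest P28 mean there was 8.03 RPKM against 2.42 at the promoter peak.

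Among the 11 peaks beyond the 3′ end, 0 were called higher from P4 to P28 by limma (18.9% of all peaks), 7 had an unadjusted p under 0.05 (51.8% of all peaks did), and the median change was 0.96 beside 0.68 over all peaks. By voom, which called 30.2% of all peaks higher, 5 of the 11 were called higher, at chr15:8586806-8587616, chr15:8595830-8597348, chr15:8604808-8606775, chr15:8619233-8620002 and chr15:8627175-8628295, with voom log2 changes of 2.09, 3.12, 1.76, 2.10 and 2.24. At chr15:8595830-8597348 voom also called a rise from P4 to P10 (3.08, adjusted p = 0.000575), which limma did not call (adjusted p = 0.0288). These peaks are named because voom called them, after their values were seen.

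Rlbp1 encodes CRALBP, the retinaldehyde-binding protein that carries retinoids in the visual cycle. Its promoter peak (chr7:79386949-79387584) covers the start site, exon and UTR sequence. Rlbp1 promoter H3K18La was 2.14 and 0.94 RPKM at P4, 8.52 and 0 at P10, and 1.65, 2.61 and 2.72 at P28. The P10 libraries spanned the full range of the other 5, with 3 reads in one and 0 in the other. The change from P4 to P28 was 0.41 (SE 0.80, limma adjusted p = 0.691) and turned to -0.63, -0.11 and -0.16 after scaling to reads in peaks, median centring and quantile normalization, so that no direction was detectable at this depth.

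Kcnj10 and Aqp4 serve potassium and water transport at the glial endfeet. Kcnj10 encodes the inwardly rectifying channel Kir4.1, and its promoter peak (chr1:172340621-172341773) covers the start site, exon and UTR sequence. Kcnj10 promoter H3K18La was 0.39 and 2.07 RPKM at P4, 0 and 3.42 at P10, and 3.87, 4.0 and 5.84 at P28. These values rest on 1 and 4 reads at P4 and 0 and 5 at P10. All P28 libraries were above all P4 and P10 libraries, and the P4 and P10 libraries overlapped. The limma test did not call the 3.71-fold difference of the means between P28 and P4 (log2 change 1.41, SE 0.64, adjusted p = 0.1). The log2 change was 0.84 without P4 replicate 1 (limma adjusted p = 0.487), 1.98 without P4 replicate 2 (0.143) and 0.45 when scaled to reads in peaks (0.596). Voom on the recovered reads called it (1.96, adjusted p = 0.00376). The strongest Kcnj10 peak by the average of the age means, an intronic one at chr1:172349724-172351111 that lay below the promoter peak in all 3 P28 libraries, had 3.27 and 4.73 RPKM at P4, 1.30 and 1.14 at P10 and 2.84, 3.99 and 4.85 at P28. Both P10 libraries, with 1 and 2 reads, lay below all others there, without a call (log2 change -1.16 from P4 to P10, limma adjusted p = 0.0579).

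Aqp4, the water channel aquaporin-4, had 7 peaks and none at its promoter. A distal peak 30842 bases upstream of the start (chr18:15441824-15442173) had 0 reads in both P4 and both P10 libraries and 4, 22 and 5 reads at P28, or 3.00, 3.86 and 2.47 RPKM. P28, at 3.11 ± 0.70 RPKM (SD, n = 3), was at least 1.41-fold higher than the P4 floor of 2.21 RPKM (limma adjusted p = 0.00125). With 0 reads at both younger ages, the peak can have entered the peak set only through P28, and that selection favours a rise. Against P10 the limma adjusted p was 0.0113, and no fold is given because the P10 floor of 4.70 RPKM is above the P28 mean. Without P4 replicate 1 or P4 replicate 2 the limma adjusted p was 0.0185 and 0.019.

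A peak over coding sequence of Aqp4 (chr18:15398973-15399843) went the other way. It had 2 and 4 reads at P4, 0 at P10 and 0, 4 and 1 at P28, or 1.04 and 2.74 RPKM against 0, 0.28 and 0.20 at P28. All P10 and P28 libraries lay below both P4 libraries, and the fall was called at P10 (limma adjusted p = 0.00535) and at P28 (log2 change -1.26, SE 0.27, limma adjusted p = 0.00564). Since P10 held no reads, the peak cannot have entered the peak set through that age, and that selection favours the fall at P10. No fold is given at P10, where the P4 mean of 1.89 RPKM equalled the floor. Without P4 replicate 2 the limma adjusted p was 0.0165 at P10 and 0.022 at P28. Without P28 replicate 1, 2 or 3 it was 0.0131, 0.0118 and 0.0119 at P10 and 0.0276, 0.0157 and 0.0201 at P28. The call at P10 was also lost without P10 replicate 1 or 2 (0.018 and 0.0179) and by voom (adjusted p = 0.181), while voom called the fall at P28. The strongest Aqp4 peak, intronic at chr18:15405176-15405452, had 1.64 and 2.15 RPKM at P4, 6.52 and 5.69 at P10 and 1.89, 4.22 and 5.61 at P28, on 1 or 2 reads in each P4 and P10 library, and was not called.

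The secreted products came next. Apoe encodes apolipoprotein E, the lipid carrier that glia secrete, and has a single peak (chr7:19697424-19699280) over its start site, coding and UTR sequence. Apoe H3K18La was 1.71 and 0.96 RPKM at P4, 3.89 and 4.25 at P10, and 3.67, 4.14 and 3.72 at P28. Both later ages lay above both P4 libraries and overlapped each other, on 7 and 3 reads at P4 and 4 and 10 at P10. The fit over peaks did not call the 2.87-fold difference of the means between P28 and P4 (log2 change 1.07, SE 0.37, limma adjusted p = 0.0397). The same values passed in the fit over genes described further on, so the call depended on the fit.

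Dkk3 encodes a secreted glycoprotein of the Dickkopf family and had 11 peaks. Its promoter peak (chr7:112159197-112159550) lies 140 bases upstream of the start. Dkk3 promoter H3K18La was 1.28 and 1.69 RPKM at P4, 5.10 and 6.68 at P10, and 2.96, 4.51 and 2.44 at P28. All P10 libraries were above all P28 libraries, which were above all P4 libraries, on 1 read in each of 3 of the 4 younger libraries. Neither the change to P10 (1.47, SE 0.42, limma adjusted p = 0.0216) nor that to P28 (0.77, SE 0.38, limma adjusted p = 0.128) was called. An intronic Dkk3 peak (chr7:112144488-112145032) rose at P10, from 1.67 and 1.09 RPKM at P4 to 6.63 and 10.1 at P10, with 1.44, 3.5 and 1.90 at P28.

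That intronic Dkk3 peak had 2 and 1 reads at P4 and 2 and 7 at P10, and both P10 libraries stood above the other 5. Its change from P4 to P10 was 1.96 (SE 0.46, limma adjusted p = 0.00923). The call was lost without P4 replicate 1 (0.0369), without P4 replicate 2 (0.0583), without P10 replicate 2 (0.0181), without each P28 replicate in turn (0.0151, 0.0199 and 0.0197) and by voom (adjusted p = 0.0144). It was also lost when scaled to reads in peaks (1.01, limma adjusted p = 0.0894), after quantile normalization (1.48, 0.0405), with a pseudocount of 0.1 (0.0176), with library weights (0.0565) and with the replicate number as a block (0.0188). The strongest Dkk3 peak, over coding sequence at chr7:112120892-112122328, had 1.90 and 3.74 RPKM at P4, 2.51 and 7.13 at P10 and 6.21, 6.84 and 5.89 at P28. P28 lay above P4 there without a call (0.98, limma adjusted p = 0.0872).

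The cytoskeletal and transcription factor genes, which Müller glia share with retinal progenitors, were Vim, Sox9 and Hes1. Vim encodes the intermediate filament protein vimentin and has a single peak (chr2:13573387-13575450) over its start site, coding and UTR sequence. Vim H3K18La was 2.64 and 3.47 RPKM at P4, 0.87 and 1.53 at P10, and 1.27, 2.14 and 2.09 at P28. Each P4 library exceeded all 5 later libraries, the only promoter peak of the set with this order. The P4 libraries held 12 reads each and the P10 libraries 1 and 4. The change from P4 to P28 was -0.52 (SE 0.43, limma adjusted p = 0.339) and was not called. It was called lower after scaling to reads in peaks (-1.71, limma adjusted p = 0.0075) and after quantile normalization (-1.57, limma adjusted p = 0.00722). Those settings called 3.56% and 3.54% of all promoters lower, against 0.342% in the main fit.

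Sox9, a transcription factor of progenitors and glia, has a single peak (chr11:112782239-112783163) that begins 15 bases after its start and covers coding and UTR sequence. Sox9 H3K18La was 1.47 and 0.65 RPKM at P4, 1.95 and 0.85 at P10, and 0.85, 1.13 and 1.68 at P28. The ages overlapped throughout, with 3, 1, 1 and 1 reads in the younger libraries. The change from P4 to P28 was 0.12 (SE 0.44, limma adjusted p = 0.837), and its sign turned to -0.17 without P4 replicate 2 and to -0.77, -0.40 and -0.30 after scaling to reads in peaks, median centring and quantile normalization.

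Hes1 encodes a repressor that acts downstream of Notch. Its promoter peak (chr16:30063974-30064544) overlaps the start of a non-coding Hes1 transcript and lies 796 bases from the coding start. Hes1 promoter H3K18La was 2.39 and 2.09 RPKM at P4, 9.49 and 5.52 at P10, and 4.14, 4.41 and 4.54 at P28. P10 was highest and P4 lowest, without overlap between any of the ages, on 3 and 2 reads at P4 and 3 and 4 at P10. The change was 1.35 to P10 (SE 0.38, limma adjusted p = 0.02) and 0.73 to P28 (SE 0.35, limma adjusted p = 0.114), neither called, and the latter turned to -0.47 and -0.03 after scaling to reads in peaks and quantile normalization.

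**Figure D2:**
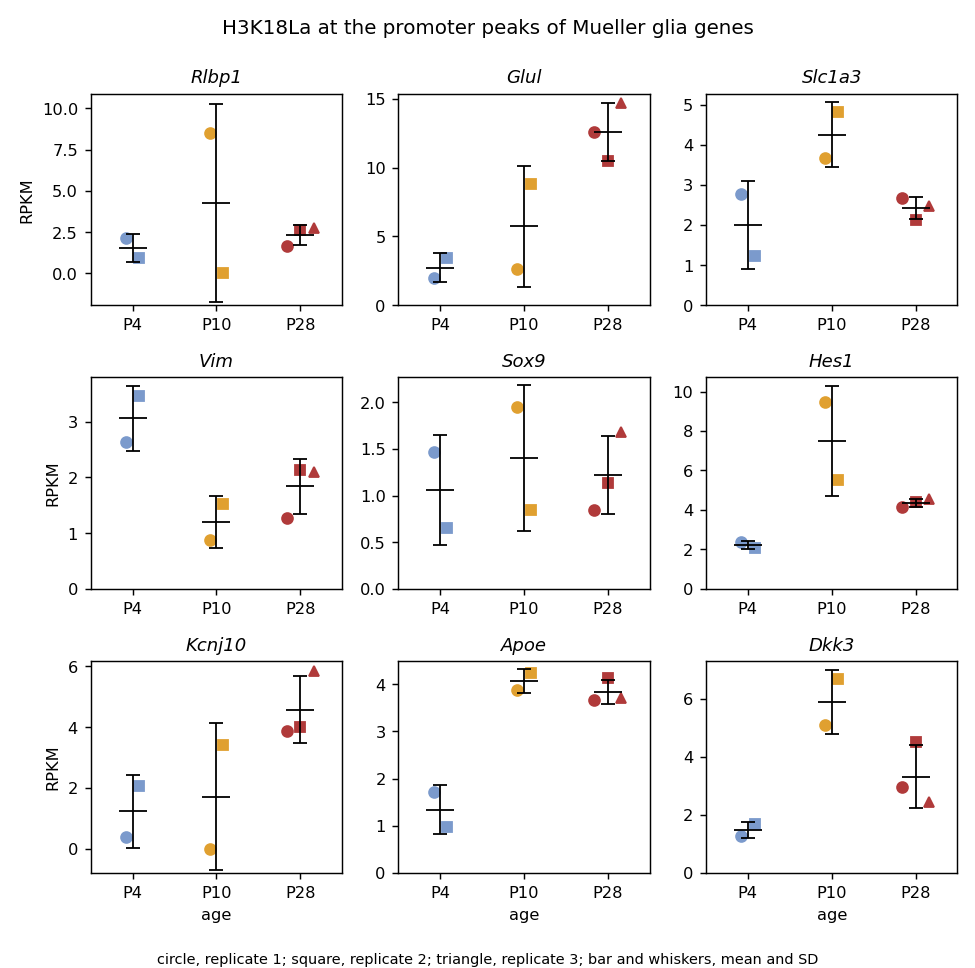
H3K18La in RPKM (vertical axis, scaled separately for each gene) at the promoter peaks of the 9 genes that have one, by age. Points are libraries and bars are mean and SD (n = 2, 2 and 3); Glul reached 10.5 to 14.7 RPKM at P28, while the other 8 genes stayed at 5.84 or below in every P28 library.

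Over the 9 promoter peaks, 1 was called higher from P4 to P28 (Glul) and 0 were called lower by limma, where 33.2% and 0.342% of the promoters of 11686 protein-coding genes were called in these directions. An unadjusted p under 0.05 was found for 2 of the 9, both higher, where 66.1% of all promoters had one. Voom called 2 of the 9 higher (Glul and Kcnj10) and 0 lower, where it called 52.8% and 1.63% of all promoters. The median change of the 9 was 0.73, beside 1.33 over all these promoters and 0.68 over all peaks. P28 and P4 libraries did not overlap at 5 promoters higher at P28 (Glul, Kcnj10, Apoe, Hes1 and Dkk3) and 1 lower (Vim), against 79.5% and 4.83% of all promoters. From P4 to P10 limma called 0 of 9 in either direction (background 11.8% higher and 0.907% lower), 3 had an unadjusted p under 0.05 (36.6% of all promoters), and voom called 0 (14.4% higher and 0.111% lower over all promoters). The comparisons of P10 and P28 with P4 share the P4 libraries.

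The direction of the promoter set depended on how libraries were scaled. Scaling to reads in peaks put the member median at -0.47 (all promoters 0.29), median centring at 0.21 (0.81) and quantile normalization at -0.03 (0.70). Those scalings moved the median change of all peaks from 0.68 to -0.29, 0.16 and 0.09. Relative to all promoters, the member median was lower under each of these scalings, by the values just given.

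Each promoter peak was also ranked among those 11686 promoters within its own library, a rank that does not depend on scaling. The median percentile of the 9 was 63.3 and 52.2 at P4, 65.2 and 62.4 at P10, and 31.3, 41.0 and 19.3 at P28, so all 3 P28 libraries were below all 4 younger ones. Glul stood at 90.7, 83.8 and 88.9 at P28, while the other 8 lay at 53.1 or lower in each P28 library. Vim went from percentiles 77.0 and 86.1 at P4 to 7.1, 14.7 and 12.4 at P28, and Sox9 stood at 3.7, 3.7 and 8.5 at P28. These ranks are a description and were not tested, and with few reads at P4 and P10 many promoters share a value there.

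**Figure D3:**
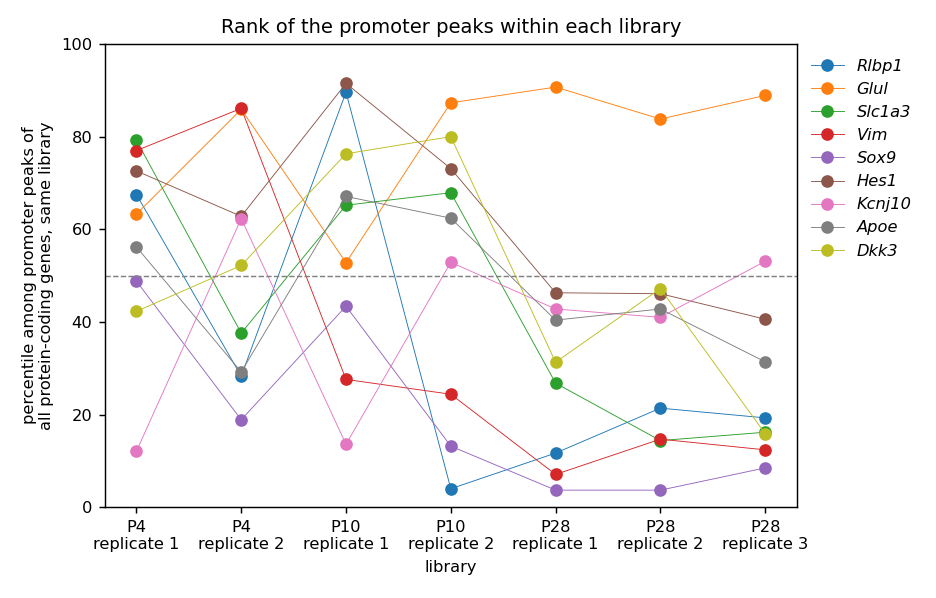
Percentile of each of the 9 promoter peaks (vertical axis) among the promoters of 11686 coding genes, within each of the 7 libraries (horizontal axis). Thin lines only join the points of a gene, and Glul is the only member above 53.1 in the P28 libraries.

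Taking all 48 peaks, 23 were intergenic, 12 intronic, 9 at promoters, 3 exonic and 1 downstream. The intergenic share of 47.9% compares with 32.8% of all peaks, and 11 of the 23 belong to the stretch beyond Slc1a3. From P4 to P28 limma called 2 of the 48 higher (Glul promoter and the distal Aqp4 peak) and 1 lower (Aqp4 exon), with backgrounds of 18.9% and 4.21% over all peaks. From P4 to P10 it called 1 higher (Dkk3 intron) and 3 lower (both Slc1a3 peaks and the Aqp4 exon), with backgrounds of 11.4% and 7.34%. Peaks were kept when called at any age, so one without reads at an age entered through another, which favours a change between them. This holds for the distal Aqp4 peak at P28 and the 3 falls at P10, and the backgrounds rest on the same selection. The median change over the 48 was 0.67 to P28 and 0.19 to P10, beside 0.68 and 0.23 over all peaks. Libraries of P28 and P4 did not overlap for 25 peaks higher and 5 lower at P28, where 50.6% and 20.7% of all peaks did so.

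Voom called 9 of the 48 peaks higher from P4 to P28 and 1 lower, where it called 30.2% and 11.3% of all peaks. From P4 to P10 it called 1 higher, an intergenic Slc1a3 peak rather than the Dkk3 intron, and 0 lower, where it called 14.5% and 0.0924% of all peaks. Besides Glul, Kcnj10, the distal Aqp4 peak and the 5 intergenic Slc1a3 peaks, the ninth was a peak over coding sequence of Hes1 (chr16:30066390-30067217). It had 1.65 and 0 RPKM at P4, 2.18 and 1.90 at P10 and 3.80, 4.82 and 3.96 at P28, with all P28 libraries above the rest (voom log2 change 2.37, adjusted p = 0.00148). The P4 libraries held 3 and 0 reads there and the P10 libraries 1 and 2.

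**Figure D4:**
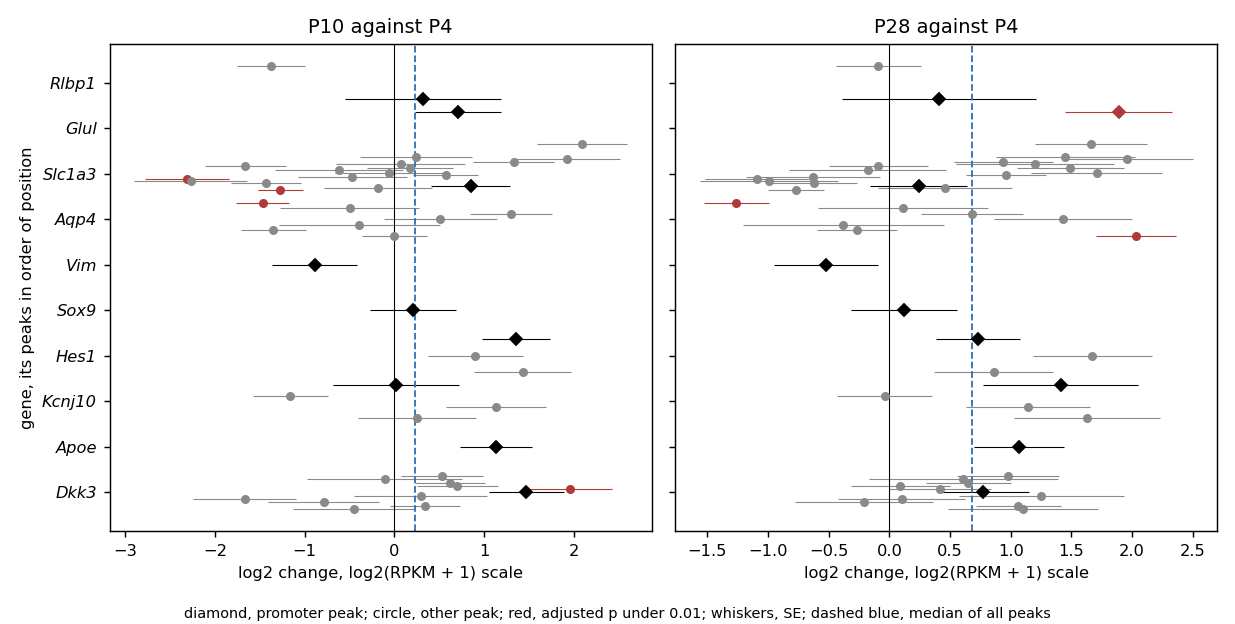
Change in H3K18La at each of the 48 member peaks from P4 to P10 (left) and from P4 to P28 (right), on the log2(RPKM + 1) scale (horizontal axis) with the SE, grouped by gene (vertical axis). Red points passed the adjusted p of 0.01, 4 on the left and 3 on the right, and the dashed line is the median of all 108253 peaks.

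To gather more reads per value, the RPKM of all peaks of a gene were averaged with their widths as weights and fitted in the same way over 25420 genes. Glul, Apoe and Hes1 rose from P4 to P28, 3 of 10, where 33.7% of all genes were called higher. Limma called no member lower (background 7.06%), and 5 of the 10 had an unadjusted p under 0.05 in either direction, as did 64.7% of all genes. Voom called 5 higher and 0 lower, where it called 42.4% and 14.9% of all genes. From P4 to P10 Apoe and Hes1 rose, 2 of 10 beside a background of 16.5%, and 0 were called lower (background 8.01%). The median gene change was 0.65 over the members and 0.76 over all genes from P4 to P28.

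Over its 2 peaks Glul had 1.87 and 3.02 RPKM at P4, 2.86 and 8.49 at P10 and 11.4, 9.65 and 13.5 at P28, a 4.70-fold rise to P28 (log2 change 1.87, SE 0.36, limma adjusted p = 0.00245). The call was lost when scaled to reads in peaks (0.61, limma adjusted p = 0.11) and after quantile normalization (0.74, 0.0709). All P28 libraries lay above all younger ones. Hes1 over its 3 peaks had 1.32 and 1.30 RPKM at P4, 3.94 and 5.73 at P10 and 3.05, 3.86 and 3.95 at P28. P4 did not overlap either later age, with changes of 1.32 to P10 (SE 0.26, limma adjusted p = 0.00444) and 0.99 to P28 (SE 0.24, limma adjusted p = 0.00702). Scaling to reads in peaks turned the latter to -0.07 and lost the call at P10 (0.39, limma adjusted p = 0.0802), while the call at P28 was also lost after median centring (0.40, 0.0702), quantile normalization (0.43, 0.0654) and with a pseudocount of 5 (0.0136). For Apoe, whose single peak gives the same values as above, the smaller spread that this fit assigns gave calls at P10 (1.13, SE 0.26, limma adjusted p = 0.0081) and at P28 (1.07, SE 0.24, limma adjusted p = 0.00457). Scaled to reads in peaks, the Apoe change was 0.22 at P10 (limma adjusted p = 0.532) and 0.01 at P28, neither called. Both Apoe calls were also lost after median centring (0.93, limma adjusted p = 0.0159 at P10 and 0.47, 0.101 at P28) and quantile normalization (0.90, 0.059 and 0.52, 0.163), and that at P10 by voom (adjusted p = 0.0334) and with a pseudocount of 5 (0.0127).

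The gene-level calls depended on which libraries were used. With 1 P4 or P28 library left out, the change to P28 was 1.62 to 2.11 for Glul, 0.83 to 1.30 for Apoe and 0.94 to 1.09 for Hes1, and 16% to 26.1% of all genes were called higher, against 33.7% with all libraries. Without P10 replicate 1 or 2 all 3 calls were kept, with 45.4% and 45.5% of all genes called higher. Without P4 replicate 2 the limma adjusted p was 0.0218 for Glul, 0.0322 for Apoe and 0.0398 for Hes1, and none was called. Without P4 replicate 1 it was 0.0475 for Glul and 0.0391 for Hes1, while Apoe kept its call at 0.00951. Without P28 replicate 1, which leaves batch 1 alone, it was 0.013, 0.0134 and 0.0117, and without P28 replicate 3 it was 0.0139, 0.0169 and 0.0287. Without P28 replicate 2 only Glul was called (0.00622, against 0.0274 for Apoe and 0.036 for Hes1). At P10 both calls were lost without P4 replicate 1 (0.0149 for Apoe and 0.0286 for Hes1), P4 replicate 2 (0.0432 and 0.029), P28 replicate 2 (0.0244 and 0.0137) and P28 replicate 3 (0.0175 and 0.0103), and that of Apoe without P10 replicate 2 (0.0131) and P28 replicate 1 (0.0156).

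The other 7 genes did not pass at either age. Slc1a3 over its 16 peaks had 2.26 and 1.29 RPKM at P4, 1.45 and 2.97 at P10 and 2.72, 3.80 and 4.06 at P28 (0.71 to P28, limma adjusted p = 0.0732). Dkk3 over 11 peaks had 2.43 and 2.15, then 2.23 and 4.71, then 4.03, 4.34 and 4.45 RPKM (0.68, limma adjusted p = 0.0559). Kcnj10 over 4 peaks had 1.86 and 2.44, then 0.98 and 2.36, then 3.07, 3.85 and 4.56 RPKM (0.61, limma adjusted p = 0.105). All P28 libraries of these 3 genes were above both P4 libraries. Aqp4, Rlbp1 and Sox9 overlapped between P4 and P28, with changes of 0.20, 0.25 and 0.12, and Vim had its single-peak values.

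**Figure D5:**
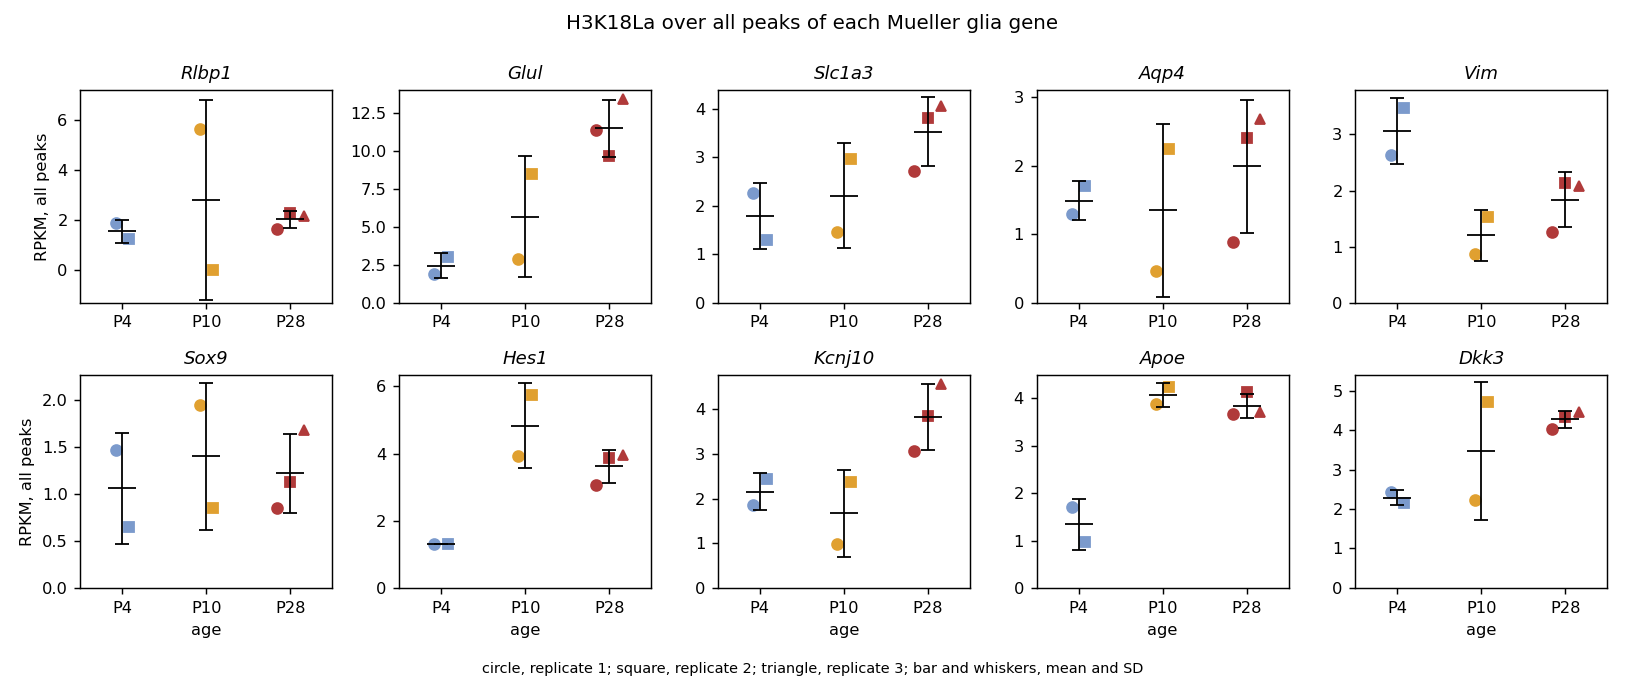
H3K18La over all peaks of each of the 10 genes, as width-weighted mean RPKM (vertical axis, scaled separately for each gene) by age. Points are libraries and bars are mean and SD (n = 2, 2 and 3); at P28 Glul had a mean of 11.5 RPKM, and the next highest were Dkk3 at 4.27, Apoe at 3.84 and Kcnj10 at 3.83.

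The order of the gene means at P28 was Glul (11.5 ± 1.90 RPKM, SD, n = 3), Dkk3 (4.27 ± 0.22), Apoe (3.84 ± 0.26), Kcnj10 (3.83 ± 0.74), Hes1 (3.62 ± 0.50), Slc1a3 (3.52 ± 0.71), Rlbp1 (2.03 ± 0.35), Aqp4 (1.99 ± 0.97), Vim (1.84 ± 0.49) and Sox9 (1.22 ± 0.42). Glul stood clear of the rest in every P28 library. From Dkk3 to Slc1a3, and again from Rlbp1 to Sox9, the libraries of neighbours in this order overlapped, while those of Slc1a3 and Rlbp1 did not. At P4 Vim was highest, at 3.06 ± 0.59 RPKM (SD, n = 2), followed by Glul at 2.45 ± 0.82 and Dkk3 at 2.29 ± 0.20, with overlap between these neighbours.

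No member was called between P10 and P28. Limma called 0 of 48 peaks (background 0.00185% higher and 0% lower) and 0 of 10 genes (4.2% higher and 0.677% lower), and voom called 0 of both (2.17% of all peaks higher and 6.09% lower, 5.22% of all genes higher and 5.33% lower). An unadjusted p under 0.05 was found for 16 peaks (32.5% of all peaks had one) and 2 genes (38.9% of all genes), Glul (log2 change 1.04, 0.0195 unadjusted by limma) and Kcnj10 (0.89, 0.0158 unadjusted by limma). Without P10 replicate 2, 10 peaks and 2 genes were called, where that fit called 13% of all peaks higher and 2.27% lower and 20% of all genes higher and 2.35% lower, on 199970 reads in peaks for the lone P10 library, which the fit assumes to vary like the other ages.

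The reads of a gene were also divided between its promoter peak and its other peaks, a share that does not depend on library scaling. In the pooled P28 reads the promoter peak held 95.6% of the Glul reads (840 of 879, 95% Wilson interval 94.0 to 96.7%), 75.9% for Rlbp1 (41 of 54, 63.1 to 85.4%), 35.4% for Kcnj10 (131 of 370, 30.7 to 40.4%), 24.3% for Hes1 (65 of 268, 19.5 to 29.7%), 3.2% for Dkk3 (35 of 1085, 2.3 to 4.5%) and 2.4% for Slc1a3 (29 of 1192, 1.7 to 3.5%). The promoter peak makes up 87.5%, 66.0%, 31.4%, 20.7%, 3.6% and 3.9% of the peak length of these genes. At P4 the promoter held 16.7% of the Kcnj10 reads (5 of 30, 7.3 to 33.6%), and the difference from P28 was not tested. The P4 libraries differed, with 6.7% (1 of 15) in replicate 1 and 26.7% (4 of 15) in replicate 2. Reads are pooled over replicates here, and the intervals cover counting error only.

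Base composition of the member peaks was close to that of their class. The 9 promoter peaks had a median GC content of 56.7% and a ratio of observed to expected CpG of 0.62, beside 59.2% and 0.68 over all coding-gene promoters. The 39 other peaks had 49.7% and 0.21, beside 48.8% and 0.18.

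A second list of 26 genes known from Müller glia was examined beside the members. Of these, 25 had a peak and 20 a promoter peak. From P4 to P28, 8 of the 20 promoters rose (background 33.2%) and 0 fell by limma (background 0.342%), 12 had an unadjusted p under 0.05 (66.1% of all promoters did), and voom called 10 higher and 0 lower (52.8% and 1.63% of all promoters). They were Car2 and Car14 (carbonic anhydrases, log2 changes 2.24 and 1.85), Crb1 (a polarity protein at the glial and photoreceptor junctions, 2.98), Slc38a3 (a glutamine transporter, 2.32), Nfix and Id1 (transcriptional regulators, 2.20 and 1.76), Clu (clusterin, 1.94) and Rdh10 (a retinol dehydrogenase, 1.43). Crb1 had 4.09 and 1.53 RPKM at P4, 11.6 and 17.2 at P10 and 23.3, 26.3 and 33.1 at P28, without overlap between the ages. Its promoter peak had 7 and 2 reads at P4 and 5 and 17 at P10. Of the 8, only Crb1 was called after scaling to reads in peaks, where 7.77% of all promoters were called higher. Car14, Crb1 and Slc38a3 were called after quantile normalization (17.2% of all promoters). Car2, Clu, Crb1, Nfix, Rdh10 and Slc38a3 were called after median centring (21.9% of all promoters). The median change of the 20 was 1.16 beside 1.33 over all promoters, and their median percentile was 61.7 and 56.5 at P4 and 46.5, 47.2 and 36.1 at P28.

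Markers of other cells in the tissue were examined in the same way, and of these the rod promoters rose. All 7 rod promoters with a peak, of 8 rod genes listed, rose from P4 to P28 (median change 2.76, with 33.2% of all promoters called higher and 0.342% lower), and their median RPKM was 1.51 and 1.65 at P4, 14.0 and 10.5 at P10 and 12.9, 17.8 and 18.5 at P28. Limma called 0 of 3 astrocyte, 0 of 1 microglial, 0 of 3 endothelial and 0 of 1 retinal pigment epithelial promoters at P28. Of these 8, 1 had an unadjusted p under 0.05 (66.1% of all promoters did), the endothelial cadherin gene Cdh5, which voom called lower. After scaling to reads in peaks, 6 rod promoters were called higher, and Cdh5 and the astrocyte gene Pdgfra were called lower, where 7.77% of all promoters were called higher and 3.56% lower. The endothelial list was mixed, with Cldn5, a tight junction gene, at a log2 change of 0.29 (limma adjusted p = 0.566). Kdr stood at -0.44 (limma adjusted p = 0.438) and Cdh5 at -1.40 (0.0523). The median RPKM of the 3 astrocyte promoters was 3.28 and 2.15 at P4 and 1.79, 2.31 and 1.25 at P28, and that of the 3 endothelial promoters 2.14 and 2.57 at P4 and 0.90, 1.59 and 1.79 at P28. Astrocytes share Glul, Slc1a3, Aqp4, Kcnj10, Vim, Sox9 and Apoe with Müller glia, and the part of these cells in the member values was not tested.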

How the data were processed

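H3K18La CUT&Tag was analysed in 7 libraries grouped by the age in their labels. The authors mapped reads to GRCm38 and called peaks with MACS, keeping those with a −log10 q-value above 6 in at least 2 replicates of an age. They merged peaks of the 3 ages, annotated them with ChIPseeker 1.34.1 (promoter, 1000 bases before to 500 after a start) and scaled libraries on windows of 10000 bases. The study's text counts 3 replicates per age, whereas the files used here hold 2 for P4 and for P10 and 3 for P28. The RPKM values used here were deposited by the authors, 1 per peak and library. The deposited differential binding table holds the authors' own fold changes, p-values and FDR from edgeR 3.40.2 and was not used.

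RPKM times width was a whole multiple of 1 read for 100.0% of peaks (tolerance 0.02 reads), which gave the reads per peak. The tests were run with limma 3.58.1 in R 4.3.3 (eBayes with trend, pseudocount 1, all 7 libraries, no filter, no covariate) and were tested on simulated data. Gene annotation was GENCODE M21 on GRCm38, and promoter sequences came from RefSeq. The labels do not say whether replicates came from separate animals, so p-values measure only the spread between these libraries. For each member the promoter peak, the peaks called and the strongest peak (highest average of the 3 age means) are named, and other genes where their promoter was called. Cdh5, Cldn5, Kdr, Pdgfra and the further peaks called by voom were added after their values were seen. The members and lists were chosen with earlier results of these data known.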

Additional observations from a re-analysis of the deposited data

How the results depend on the processing

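Counts of calls depended on nearly every choice tried, beside 2 peaks higher and 1 lower from P4 to P28, 1 higher and 3 lower from P4 to P10, and 0 between P28 and P10 among the 48 member peaks. Peaks higher at P28 numbered 1 with a pseudocount of 0.1, 1 with the filter at the median RPKM, 1 scaled to reads in peaks, 1 after quantile normalization, 9 by voom, 13 with library weights and 10 at an adjusted p of 0.05. Over all peaks, 18.9% were higher at P28 as reported, 12.8% with a pseudocount of 0.1, 34.8% with the filter, 7.2% scaled to reads in peaks, 12.6% after quantile normalization, 30.2% by voom, 34.8% with library weights and 32.6% at 0.05, so the share called moved in the whole data set too. Peaks lower at P28 numbered 0 with a pseudocount of 0.1, 0 with the filter and 5 scaled to reads in peaks. They numbered 2 after median centring, 5 after quantile normalization and 2 at 0.05. The share of all peaks, 4.21% as reported, was 1.42%, 0.26%, 15.2%, 9.91% and 13.5% in the settings before 0.05. At 0.05, 10223 of all 108253 peaks were lower. Peaks higher at P10 numbered 0 with a pseudocount of 0.1, 2 with the filter and 0 scaled to reads in peaks. They numbered 0 after quantile normalization, 0 with library weights and 6 at 0.05. The share of all peaks, 11.4% as reported, was 8.38%, 21.2%, 4.35%, 4.08%, 4.94% and, at 0.05, 21.4%. Peaks lower at P10 numbered 0 with the filter, 11 scaled to reads in peaks and 6 after median centring. They numbered 0 by voom, 0 with library weights and 9 at 0.05. The share of all peaks, 7.34% as reported, was 0.297%, 15.9%, 10.3%, 0.0924% and 0.0841% before 0.05. At 0.05, 14681 of all 108253 peaks were lower. Between P28 and P10, 1 peak was called with a pseudocount of 0.1, where 1.16% of all peaks were higher and 0.0702% lower. With a pseudocount of 5, 1 was called, where 1.86% were higher and 0.919% lower. At 0.05, 4 were called, where 10942 of all 108253 peaks were higher and 3523 lower. Among the 10 genes, beside 3 higher at P28 and 2 at P10, those higher at P28 (33.7% of all genes as reported) numbered 0 scaled to reads in peaks, 1 after median centring, 0 after quantile normalization, 5 by voom and 5 with library weights, where the share of all genes called higher ranged from 11.3% scaled to reads in peaks to 49.9% with library weights. Those higher at P10 numbered 1 with a pseudocount of 5, 0 scaled to reads in peaks, 1 after median centring, 1 after quantile normalization, 1 by voom and 0 with library weights, where the share of all genes, 16.5% as reported, ranged from 6.24% scaled to reads in peaks to 20.4% by voom. Genes lower, 0 as reported, numbered 1 at P28 under each of these 3 scalings, and 2, 1 and 1 at P10, where 25.5%, 16.6% and 18.6% of all genes were called lower at P28 and 23.8%, 9.7% and 7.75% at P10. Of the 20 further Müller glia promoters, 8 were higher at P28, where 33.2% of all promoters were. This became 1 scaled to reads in peaks (7.77% of all promoters), 6 after median centring (21.9%) and 3 after quantile normalization (17.2%).

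Leaving out 1 library at a time put the share of all peaks called higher at P28 between 5.21% (without P4 replicate 1) and 32.1% (without either P10 replicate). Without P28 replicate 1, 2 or 3, 1 member peak was higher at P28, where 8.32% to 11.5% of all peaks were. In those fits 0 were lower at P28 (2.08% to 2.24% of all peaks). At P10, 0 were higher (5.06% to 7.08% of all peaks) and 0 to 1 lower (2.97% to 4.91%). Between P28 and P10, 0 member peaks and 0 of all peaks were called. In the same fits 0 to 1 genes were higher at P28 (21.3% to 26.1% of all genes) and 0 to 1 at P10 (10.8% to 12.9%). Genes lower numbered 0 at P28 (3.57% to 3.92% of all genes) and 0 at P10 (5.61% to 6.53%). Between P28 and P10, 0 member genes and 0 of all genes were called. Fits that left 1 library at P4 or P10 moved the counts further, among the members and over all peaks. Where 1 library of an age remained, it was assumed to vary like the other ages. Signs turned at promoters that were not called, namely Rlbp1 (-0.63, -0.11 and -0.16 scaled to reads in peaks, median centred and quantile normalized), Slc1a3 (-0.86, -0.28 and -0.47, and -0.15 to 0.62 when 1 library was left out, negative without P4 replicate 2), Sox9 (-0.77, -0.40 and -0.30, -0.06 by voom, and -0.17 to 0.42 when 1 library was left out, negative without P4 replicate 2 and, at -0.02, without P28 replicate 3), Hes1 (-0.47 scaled to reads in peaks and -0.03 quantile normalized) and Dkk3 (-0.31 scaled to reads in peaks), and at the gene level for Hes1 (-0.07 scaled to reads in peaks). The cause was not tested. Library weights also lost the calls at P10 of both Slc1a3 peaks (limma adjusted p = 0.0321 and 0.0652) and of the Aqp4 exon (0.0452), quantile normalization those of the upstream Slc1a3 peak (0.0402) and the Aqp4 exon (0.0444), and a pseudocount of 0.1 that of the Aqp4 exon at P28 (0.0208).

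With the replicate number as a block, 1 peak and 1 gene were higher at P28, where 11.4% of all peaks and 21.3% of all genes were. At P10, 0 and 0 were higher, where 9.56% of all peaks and 12.3% of all genes were. The call at P10 of the first Slc1a3 peak was lost (limma adjusted p = 0.0136), and Sox9 stood at -0.02. The numbers are not known to pair libraries, since same-numbered libraries correlated at -0.001 to 0.047 in their deviations. The filter removed the Vim and Sox9 promoters and the low peaks that were called, for which it gives no value. Each member had at most 1 promoter peak, so averaging promoter peaks changed nothing.

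Depth limited the younger ages, with 2 libraries each at P4 and P10 and often under 5 reads per peak, so that a change that was not called is not shown to be absent.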
